A study of Mus musculus with 12 samples.

Results

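The genes described here write, erase and read DNA methylation in the hypothalamus of mouse pups exposed to modified maternal separation (MMS). They were the rows of the deposited count table whose symbol was Dnmt1, Dnmt3a, Dnmt3b, Uhrf1, Tet1, Tet2, Tet3, Mbd1 or Mbd2. All 9 were found among the 43280 rows of the table, and 7 of the 9 passed the filter on low counts that 13104 genes passed. MMS is a mouse model of early life stress in which pups are taken from the dam on consecutive days and turned onto their backs whenever they right themselves. Pups were C57/Bl6 males, and the groups were 6 controls, which had no separation, and 6 pups exposed to MMS. Both were killed on postnatal day 6, the MMS pups directly after their last session. No genetic change was used. Litters supplied males to both groups. Which litter a pup came from is not stated in the labels, so the tests treat pups as independent.

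Each pup gave 1 library from total RNA of the dissected hypothalamus, made with a 3' mRNA kit that reads the end of a transcript next to its poly(A) tail. A transcript then gives about the same number of reads whatever its length, so levels are given as CPM, the counts scaled to the library total and by TMM, and were set against each other between genes with no length scaling. Library totals ran from 3765759 to 6560620 counts in controls and from 3218777 to 5344080 in MMS pups. All 12 hypothalamic markers, among them the developmental factors Nkx2-1, Otp and Sim1, passed the count filter, and their summed level was 667 to 1385 CPM among controls and 598 to 1484 CPM in the MMS group. On the first principal component MMS 2 and MMS 4 lay at 57.8 and 46.3, and the other 10 libraries between -14.4 and -3.04. In these 2 libraries 6 neuronal markers summed to 5726 and 5963 CPM, below the 7018 to 8371 CPM of the other 10 libraries, and the ependymal cilia markers found in the table (9 of 10 listed) summed to 15.6 and 37.6 CPM, below the 82.7 to 195 CPM of the others. Microglial markers summed to 111 and 122 CPM there, below the 127 to 169 CPM of the others, and astrocyte markers to 1176 and 1178 CPM, above the 855 to 1124 CPM of the others. The log2 fold change of each of the 9 genes is therefore also given without these 2 libraries. Such sums follow the most abundant markers of a list, and how single markers moved in MMS 2 and MMS 4 is not given here. Between the whole groups, 3 of the 6 neuronal markers were higher and 3 lower in MMS, with a median log2 fold change of -0.0026. Of 5 astrocyte markers, and likewise of 5 microglial markers, 2 were higher and 3 lower. All 8 tested ependymal markers were lower. In bulk tissue fewer cells of a type and less RNA per cell cannot be told apart.

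In mammals a methyl group is added mostly to cytosines followed by guanine (CpG sites). DNMT3A and DNMT3B place it on unmethylated DNA, and DNMT1 copies it onto the new strand after replication, brought to the site by UHRF1, which binds hemimethylated DNA. The TET dioxygenases oxidise methylcytosine, the step that opens active demethylation, and MBD1 and MBD2 bind methylated CpG sites and recruit repressor complexes. In the postnatal brain neurons keep DNMT1 and DNMT3A after their last division, and early postnatal DNMT3A is known for methylating neuronal genomes outside CpG sites as well.

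In mm10 (GENCODE release M21) the writers lay on separate chromosomes, with Dnmt1 at chr9:20907209-20959888 (minus strand), Dnmt3a at chr12:3806007-3914443 (plus strand) and Dnmt3b at chr2:153649450-153687730 (plus strand), with Uhrf1 at chr17:56303321-56323486 (plus strand). Tet1 lay at chr10:62804570-62908996, Tet2 at chr3:133463679-133545139 and Tet3 at chr6:83362373-83459084, all on the minus strand. The nearest annotated gene to any of the 9 3' ends, within a window of 2000 bases, was Cfap53, which lay 358 bases from the 3' end of Mbd1 on the same strand and had 83 counts over all 12 libraries. The antisense genes Dnmt3aos and Dnmt3bos had 0 counts. Their partners overlap them, but whether counting used strand is not given in the sources used here, nor is the treatment of reads shared with pseudogene copies such as Dnmt3a-ps1.

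The study also measured Dnmt1 and Dnmt3a by quantitative PCR, in more pups than were sequenced. For Dnmt1 the paper reports a point difference between the groups that missed its corrected threshold, and for Dnmt3a no change. Its t-statistic for Dnmt1 has the sign of that for Per1, which the paper reports as increased after MMS. By that sign Dnmt1 was higher in MMS. In the counts the log2 fold change of Dnmt1 had the other sign, at -0.11 (SE 0.15, edgeR). Its interval, -0.41 to 0.20, included 0, and the value was 0.07 without MMS 2 and MMS 4. Whether the assays differ was not tested. The primers of that assay are shown because they lie at a set place in these messages, whereas the 3' counts read whichever end a message has.
DNMT1 forward: gctaccagtgcacctttggt
DNMT1 reverse: atgatggccctccttcgt
DNMT3a forward: ggtgcactgaaatggaaagg
DNMT3a reverse: gaagaggtggcggatgac
In GENCODE the DNMT1 pair gave a product of 73 bases that spanned exons 33 and 34 of transcript Dnmt1-203 (chr9:20910263-20911445) and ended 1222 bases before the end of that transcript. The DNMT3a pair gave a product of 128 bases across exons 22 and 23 of transcript Dnmt3a-201 (chr12:3906865-3907714), 6729 bases before its end. Both products lay within the coding sequence of these transcripts. For Dnmt3a the distance depended on the annotated end, and was 3240 bases in Dnmt3a-203 but 128 bases in the short coding transcript Dnmt3a-205. It was 324 bases in Dnmt3a-210 and 173 bases in Dnmt3a-215, where the product was not wholly coding.

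RefSeq promoter windows of 300 bases (GRCm38.p6, 250 bases before and 50 after a transcription start) were at hand for 7 of the 9 genes, in 12 windows. The windows held 2 to 57 CpG sites each, against a median of 7 over 32851 mouse promoter windows. Tet2 had the most, with 57, and the Dnmt3a windows held 18, 46 and 47. Dnmt1 had 3 windows with 2, 12 and 33 sites. A GC box (GGGCGG, either strand) was present in 10 of the 12 windows and in 35.7% of all mouse windows. The letters bound by E2F factors, which drive genes of S phase, were searched as TTTCGCGC and TTTGGCGC on both strands. Either form was present in 0.813% of all mouse windows. Among the 12 windows here it was present in 1 window of Dnmt1 and 1 window of Uhrf1, the maintenance pair. The other windows of these genes had neither form. The windows with a match are shown with these letters in capitals, for Dnmt1 at chr9:20952574-20952873 (minus strand) and for Uhrf1 at chr17:56304063-56304362 (plus strand).
Dnmt1 promoter: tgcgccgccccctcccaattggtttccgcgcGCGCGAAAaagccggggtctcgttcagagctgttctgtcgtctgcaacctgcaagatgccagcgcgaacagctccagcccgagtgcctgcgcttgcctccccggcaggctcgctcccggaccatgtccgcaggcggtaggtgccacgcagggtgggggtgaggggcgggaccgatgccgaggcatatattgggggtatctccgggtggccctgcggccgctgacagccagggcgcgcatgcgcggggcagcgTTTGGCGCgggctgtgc
Uhrf1 promoter: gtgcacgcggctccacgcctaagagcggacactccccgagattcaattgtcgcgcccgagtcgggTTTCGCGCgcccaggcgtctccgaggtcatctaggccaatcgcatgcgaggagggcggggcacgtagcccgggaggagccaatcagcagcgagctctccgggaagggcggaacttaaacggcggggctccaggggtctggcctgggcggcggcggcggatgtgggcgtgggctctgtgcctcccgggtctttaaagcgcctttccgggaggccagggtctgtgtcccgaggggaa
Counted from the 5' end of the window, the letters began at bases 32 and 284 in Dnmt1 and at base 66 in Uhrf1. A match of letters is a description and not evidence of binding.

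The first comparison asked whether any of these genes differed between MMS and control pups. None of the 7 tested genes passed an adjusted p of 0.05 (edgeR quasi-likelihood test, Benjamini-Hochberg over 13104 genes), where 0% of all tested genes did. At an unadjusted p under 0.05 there were 0 of the 7, against 9.08% of all genes, and DESeq2 and limma-voom likewise gave 0 of the 9 genes at either threshold. Of the 7 genes 3 were higher and 4 lower in MMS, where 50.1% of all genes were higher, and their median log2 fold change was -0.01 against 0.0009 over all genes. The edgeR adjusted p ran from 0.584 for Mbd1 to 0.990 for Mbd2. In 0 of the 9 genes did the groups separate without overlap, against 0.389% of all tested genes. The number past the threshold was also 0 without MMS 2 and MMS 4.

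**Figure D1:**
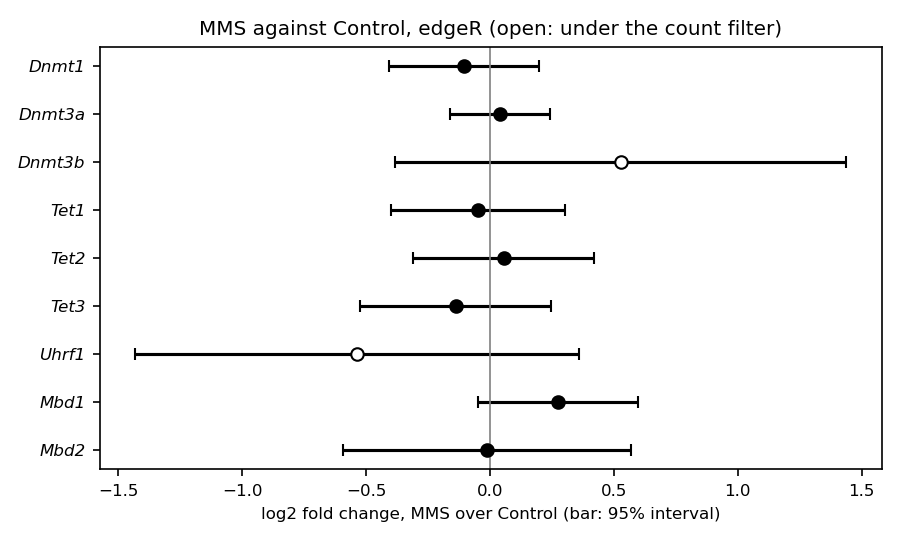
Log2 fold change of each gene in MMS over control pups (edgeR, 6 libraries per group), with bars for the 95% interval. Open points are genes under the count filter. Every interval includes 0, and the narrowest is that of Dnmt3a, from -0.16 to 0.24.

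Dnmt3a was by far the most abundant of the genes and the steadiest. It measured 346 CPM in the lowest, 374 CPM in the median and 454 CPM in the highest control, and 368, 394 and 450 CPM in the MMS group. All 6 MMS libraries lay within the control range. Controls averaged 390 ± 47.6 CPM and the MMS group 401 ± 28.5 CPM (SD, n = 6 each), a log2 difference of 0.04 (SE 0.10, edgeR adjusted p = 0.907). The 95% interval ran from a 0.893-fold to a 1.18-fold level in MMS. It rested on 1216 to 2476 counts per library, and 97.1% of the tested genes had a lower level. Over the 12 libraries the highest level was 1.31 times the lowest, and leaving out MMS 2 and MMS 4 gave a log2 fold change of 0.04 as well.

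Dnmt1 had like means in both groups but a wider spread in MMS. Controls measured 49.7 to 60.5 CPM with a median of 55.8 CPM. The MMS libraries 1 to 6 measured 50.1, 43.8, 47.5, 34.4, 72.4 and 61.8 CPM. Of these, 2 lay above all controls, 3 below all controls and 1 within their range. The means were 55.5 ± 4.29 and 51.7 ± 13.5 CPM (SD, n = 6 each), and the SD of the MMS group was 3.15 times that of the controls, which was not tested. A wider spread in MMS was not particular to Dnmt1. The SD was 31.3 CPM in controls and 111 CPM in MMS for Chd3, a NuRD gene, and 345 and 1059 CPM for the summed neuronal markers. Among the 9 genes it was smaller in MMS for Dnmt3a, Tet1 and Uhrf1. How common a wider spread was over all genes was not counted. The log2 fold change of Dnmt1 was -0.11 (standard error 0.15, adjusted p = 0.822 in edgeR), with a 95% interval of -0.41 to 0.20. The lowest Dnmt1 values were those of MMS 4 and MMS 2, the libraries with the lowest neuronal and ependymal marker sums, whose part in these values was not tested. Without them the log2 fold change was 0.07 (edgeR adjusted p = 0.967), and the other 4 MMS libraries averaged 58.0 ± 11.4 CPM.

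The message of Uhrf1, which encodes the partner of DNMT1 in maintenance, was barely detected. Uhrf1 had 87 counts over all 12 libraries, 2 to 13 in each, and did not pass the count filter. It measured 0.926 to 2.99 CPM among controls and 0.606 to 2.25 CPM in the MMS group, and 4 of the 6 MMS libraries lay within the control range. The mean level of Dnmt1 was 32.8 times that of Uhrf1. Added back to the tested genes, Uhrf1 had a log2 fold change of -0.54 (standard error 0.43, adjusted p = 0.686 in edgeR), with a 95% interval from -1.43 to 0.36, so neither a fall to 0.371-fold nor a rise to 1.28-fold was told apart from no change at this depth. Leaving out MMS 2 and MMS 4 gave -0.36.

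Dnmt3b, the second de novo enzyme and the form used mainly in the early embryo, was also low. It had 101 counts in all and 1 to 19 per library, and it too was under the filter. Controls measured 0.688 to 2.01 CPM and MMS pups 0.303 to 4.45 CPM, with the lowest and the highest value both in the MMS group, in MMS 3 and MMS 1. The log2 fold change was 0.53 (standard error 0.44, adjusted p = 0.695 in edgeR), with a 95% interval from -0.38 to 1.44. It was 0.20 without MMS 1 and 0.65 without MMS 2 and MMS 4. The mean level of Dnmt3a was 218 times that of Dnmt3b.

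**Figure D2:**
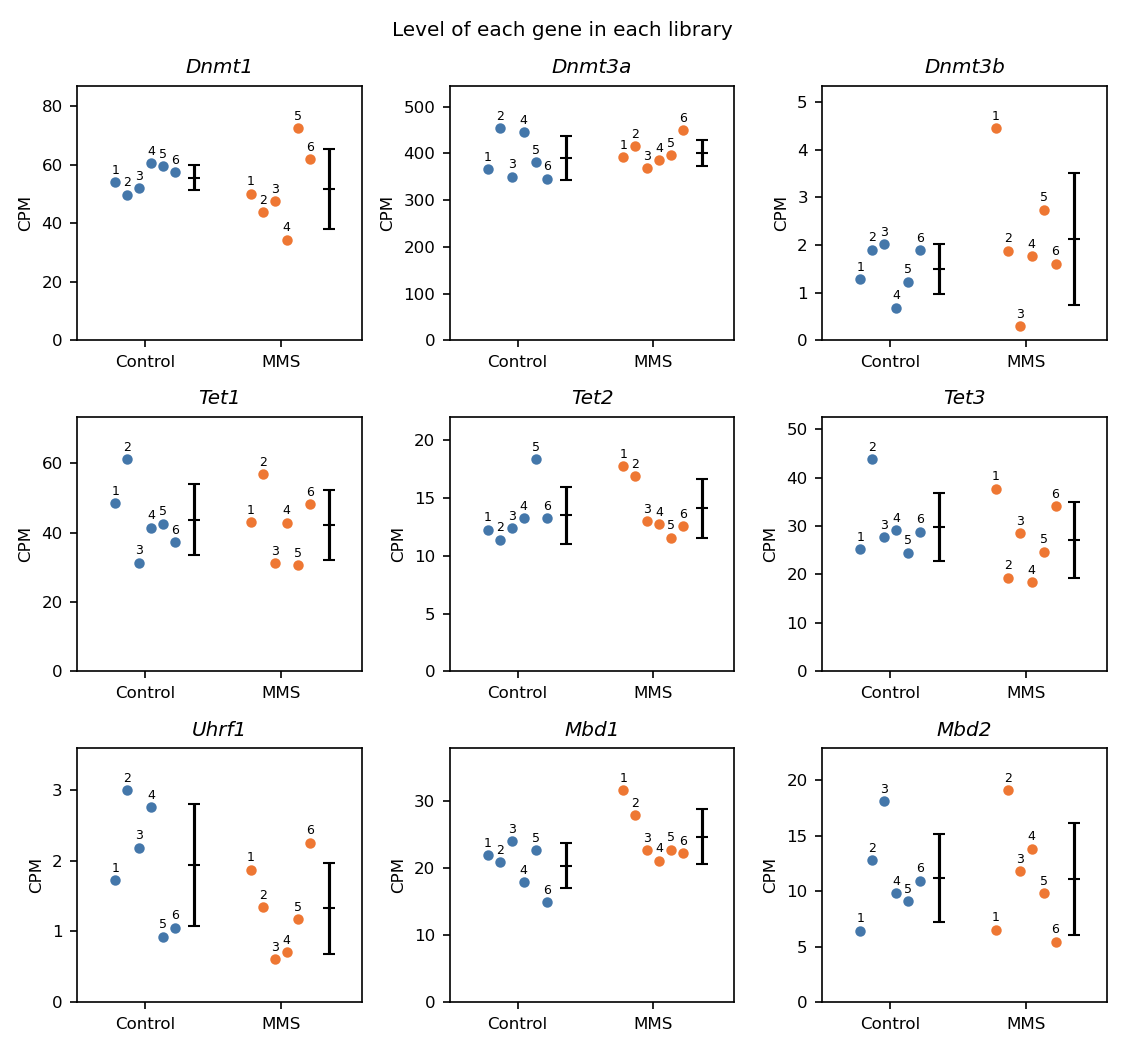
Level in CPM (TMM-scaled, each axis from 0) of each gene in each library. Numbers give the replicate and black bars the mean and SD of 6 libraries. Groups overlap in all 9 genes, and Dnmt1 is spread from 34.4 to 72.4 CPM in MMS against 49.7 to 60.5 CPM in controls.

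Among the erasers Tet1 was the most abundant, followed by Tet3 and Tet2. Tet1, first found as a fusion partner of MLL in leukaemia, measured 31.4, 42.0 and 61.1 CPM in the lowest, median and highest control and 30.6, 43.0 and 56.9 CPM in the MMS group. Here 4 of 6 MMS libraries lay within the control range and 2 just below it. Its log2 fold change was -0.05 (standard error 0.17, adjusted p = 0.935 in edgeR), with a 95% interval of -0.40 to 0.30. The value depended on the libraries, from 0.07 without control 2 to -0.19 without MMS 2 and MMS 4, and was -0.23 with 1 surrogate variable.

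Tet2, a gene often mutated in blood cancers and the lowest TET gene in these libraries, measured 11.4 to 18.4 CPM among controls and 11.6 to 17.8 CPM in the MMS group. All 6 MMS libraries lay within the control range, and the log2 fold change was 0.05 (standard error 0.18, adjusted p = 0.930 in edgeR, 95% interval -0.31 to 0.42). Control 5, at 18.4 CPM, was apart from the other controls, which reached 13.3 CPM, and without it the log2 fold change was 0.18. It was 0.02 without MMS 2 and MMS 4.

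Tet3, whose enzyme is known for oxidising the paternal genome of the zygote, measured 24.5, 28.3 and 43.7 CPM in the lowest, median and highest control. The MMS group measured 18.4, 26.6 and 37.7 CPM. MMS 2 (19.3 CPM) and MMS 4 (18.4 CPM) lay below all controls and the other 4 within their range. The log2 fold change was -0.14 (standard error 0.19, adjusted p = 0.819 in edgeR, 95% interval -0.52 to 0.25). Without MMS 2 and MMS 4 it was 0.08, and without control 2, the highest control, it was -0.0026.

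The readers lay near Tet3 and Tet2 in level. Mbd1 (chr18:74267605-74282732) and Mbd2 (chr18:70568189-70626131) lie on the plus strand of the same chromosome. Mbd1 had the smallest p of the tested genes. It measured 15.0, 21.4 and 24.0 CPM in the lowest, median and highest control and 21.1, 22.7 and 31.6 CPM in the MMS group. MMS 1 and MMS 2 lay above all controls, and the other 4 lay within the control range. The means were 20.4 ± 3.37 and 24.7 ± 4.12 CPM (SD, n = 6 each), giving a log2 fold change of 0.27 (standard error 0.16, adjusted p = 0.584 in edgeR) and a 95% interval of -0.05 to 0.60. It was positive in all 21 fits, from 0.20 without MMS 1 to 0.33 without control 3, was 0.29 without MMS 2 and MMS 4, and passed the threshold in 0 of them.

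Mbd2, which recruits the NuRD repressor complex, was the most variable of the genes that passed the filter. It measured 6.46 to 18.1 CPM among controls and 5.47 to 19.1 CPM in the MMS group, a 3.48-fold range over the 12 libraries, from 17 to 108 counts. Its biological coefficient of variation was 31.3%, against 13.8% for Dnmt3a and a median of 19.2% over all tested genes. The log2 fold change was -0.01 (standard error 0.28, adjusted p = 0.990 in edgeR, 95% interval -0.59 to 0.57). The highest MMS value was that of MMS 2, and without MMS 2 and MMS 4 the log2 fold change was -0.41. The highest control value was that of control 3, and without it the log2 fold change was 0.19. Choroid plexus markers summed to 1764 CPM in control 3, to 10.3 to 42.4 CPM in the other 5 controls and to 9.99 to 15.8 CPM in the MMS group, and their part in the Mbd2 level was not tested.

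The order of the levels, averaged over the 12 libraries, was Dnmt3a (396 CPM), Dnmt1 (53.6), Tet1 (42.9), Tet3 (28.5), Mbd1 (22.6), Tet2 (13.8), Mbd2 (11.2), Dnmt3b (1.82) and Uhrf1 (1.63). Dnmt3a stood above Dnmt1, and Mbd2 above Dnmt3b, in all 12 libraries with no overlap of the ranges. Tet1 was above Tet3 and Mbd1 above Tet2 in all 12 libraries as well, although the ranges of each pair overlapped between libraries. The order of the remaining neighbours varied between libraries. Dnmt1 was above Tet1 in 9 of 12 libraries, Tet3 above Mbd1 in 10, Tet2 above Mbd2 in 8 and Dnmt3b above Uhrf1 in 6.

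Within each family the mean shares of the groups differed by less than their SD. Dnmt3a gave 87.1% ± 1.54 of the counts of the 3 methyltransferases in controls and 88.2% ± 2.52 in MMS pups (SD, n = 6 each). Tet1 gave 49.8% ± 4.34 of the TET counts in controls and 50.4% ± 7.66 in MMS pups, and Tet3 gave 34.2% ± 4.27 and 32.7% ± 7.81. The shares of MMS 2 and MMS 4 lay at the edge in each family. Dnmt3a held 90.1% and 91.4% there, against 84.0% to 89.8% elsewhere, and Tet3 held 20.7% and 24.9% of the TET counts, against 28.7% to 39.2% elsewhere. For Tet3 the 95% binomial intervals (Wilson) were 16.8% to 25.3% in MMS 2, from 72 of 347 counts, and 21.0% to 29.2% in MMS 4, from 104 of 418. For Dnmt3a they were 88.6% to 91.4% and 90.2% to 92.5%. Some of the other libraries had intervals that overlapped these and some did not. For Tet3 the interval of control 1 was 25.1% to 34.0% and that of control 2 was 33.2% to 42.3%. For Dnmt3a that of control 2 was 88.3% to 91.1% and that of control 6 was 83.7% to 86.8%. Such intervals leave out the spread between pups. They also treat reads as independent molecules, which reads without molecular identifiers are not, so they may be too narrow even for counting error. The shares of these 2 libraries were singled out after their values were seen.

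**Figure D3:**
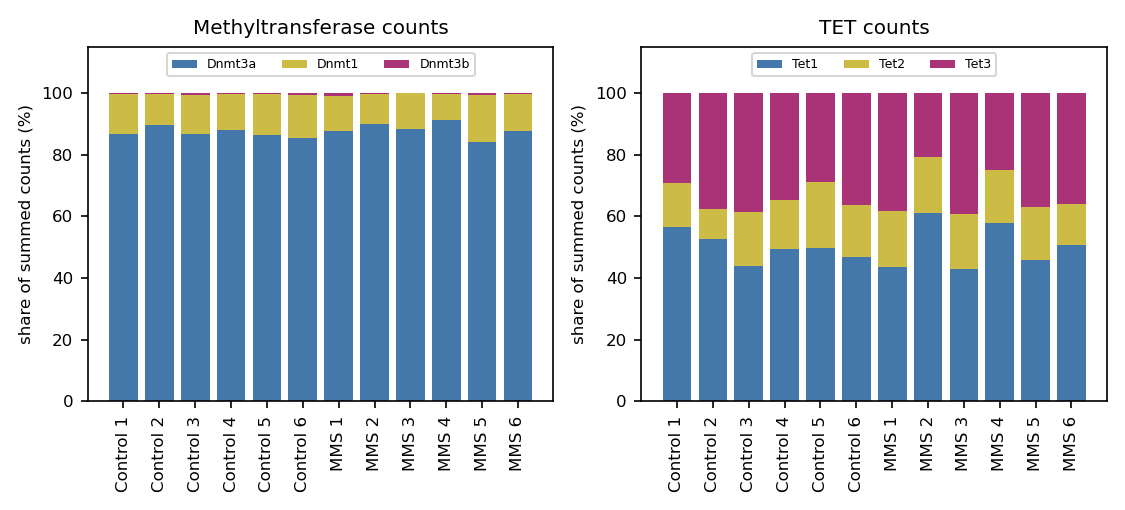
Shares of the summed counts of the methyltransferase genes (left) and the TET genes (right) in each library, in percent, as stacked bars. Dnmt3a holds 84.0% to 91.4% in every library, and the Tet3 share is smallest in MMS 2 (20.7%) and MMS 4 (24.9%).

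It was then asked whether the genes varied together between pups. Because MMS 2 and MMS 4 formed a cluster of their own, the correlation of log2 CPM was computed over the other 10 libraries for all 36 pairs. None passed an adjusted p of 0.05, and at an unadjusted p under 0.05 there were 0 of 36 as well (permutation test of Pearson r, two-sided, 100000 permutations). The smallest p was that of Tet1 and Tet3, with r = 0.62 (permutation p = 0.0551, adjusted p = 0.498) and rho = 0.49 (permutation p = 0.153, adjusted p = 0.912). Without the 2 libraries farthest from the median of Tet1 this r was 0.17. Leaving out the extreme libraries narrows the range and can lower r in itself, so this does not show what r rested on. Dnmt3a and Uhrf1 had r = 0.63 (permutation p = 0.0561, adjusted p = 0.498) and rho = 0.62 (permutation p = 0.0610, adjusted p = 0.912), and r = 0.43 without the 2 libraries farthest from the median of Dnmt3a. Dnmt1 and Uhrf1, the maintenance pair, each have a promoter window with the E2F letters. Their r was -0.04 (permutation p = 0.921, adjusted p = 0.958) and their rho 0.07 (permutation p = 0.866, adjusted p = 0.973). Without the 2 libraries farthest from the median of Dnmt1 their r was -0.28. Within the 6 controls alone r was 0.61 for Tet1 and Tet3, 0.68 for Dnmt3a and Uhrf1 and -0.49 for Dnmt1 and Uhrf1. The counts of Uhrf1 were so low that its counting error alone was 42.1% of its level, against an observed coefficient of variation of 48.4%.

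**Figure D4:**
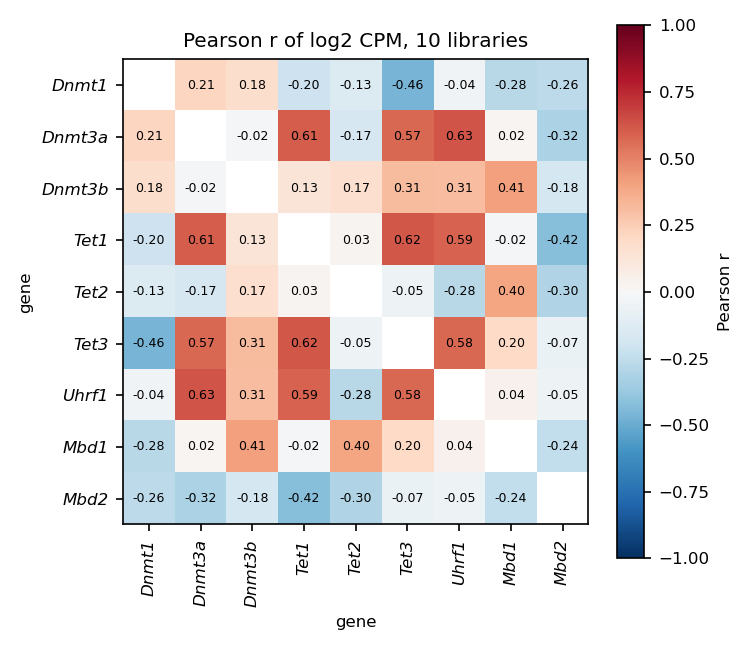
Pearson r of log2 CPM between each pair of genes over 10 libraries (MMS 2 and MMS 4 left out), from -1 in blue to 1 in red. The highest values, 0.63 for Dnmt3a with Uhrf1 and 0.62 for Tet1 with Tet3, do not pass the test.

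The genes whose pattern over the 10 libraries was most like that of 4 of these genes were sought among genes with a mean of at least 20 counts, by Pearson r of log2 CPM centred within each group. For Dnmt1 they were Zmat2 (r = 0.96), Rnf141 (0.95) and Rnf19b (0.95), and for Dnmt3a they were Ssb (0.97), Atg12 (0.96) and Htr2c (0.94), which encodes a serotonin receptor. For Tet3 they were C77370 (0.98), Ino80 (0.91), which encodes a chromatin remodeller, and Dlg1 (0.91), and for Uhrf1 they were Grm3 (0.91), Nprl3 (0.90) and Rfx1 (0.90). Each comes from the top of 11745 or 11746 values over 10 libraries, so these r are descriptions with no test.

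The last comparison took other genes of the pathway, in 6 lists with 62 genes, of which 57 passed the filter. None passed an adjusted p of 0.05 (edgeR), and 29 were higher and 28 lower in MMS, with a median log2 fold change of 0.0044. Unadjusted p-values under 0.05 were found for 5 genes (8.77%), of which 2 were higher and 3 lower, a share near the 9.08% of all genes. With MMS 2 and MMS 4 left out it was 1 of 59 tested, where 674 of all 13407 genes passed. The groups separated without overlap in 0 of the 57.

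Among genes listed for supply of the methyl donor, 5 of 9 tested were higher and 4 lower, with a median of 0.05. Whether each listed gene, Ahcyl2 included, acts in that supply was not measured here. Ahcyl2, a relative of the enzyme that clears the product of methyl transfer, had the smallest p of all 57 genes, with a log2 fold change of 0.56 (standard error 0.17, adjusted p = 0.518 in edgeR). Controls averaged 23.8 ± 4.11 CPM and MMS pups 35.0 ± 9.01 CPM. The level exceeded every control in 4 of the 6 MMS libraries and was 44.1 CPM in MMS 2 and 44.3 CPM in MMS 4. Mtrr, which keeps methionine synthase active, had -0.82 (SE 0.39, edgeR adjusted p = 0.546). Its highest control was control 1, at 12.1 CPM, and without it the log2 fold change was -0.39. Without MMS 2 and MMS 4 the log2 fold change was 0.36 for Ahcyl2 and -0.51 for Mtrr.

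Of 10 genes listed as other methyl-CpG readers 7 were higher and 3 lower, with a median log2 fold change of 0.12. Whether the protein of each listed gene, Mbd3 included, binds methylated CpG sites was not measured here. Mbd3, a NuRD subunit of the same family as Mbd2, measured 47.8 ± 6.28 CPM among controls and 61.2 ± 15.3 CPM in the MMS group, with a log2 fold change of 0.36 (standard error 0.15, adjusted p = 0.543 in edgeR). It was above all controls in 5 of 6 MMS libraries, with the highest values in MMS 4 (86.2 CPM) and MMS 2 (73.1 CPM). Zbtb38, a zinc finger reader, had -0.28 (SE 0.13, edgeR adjusted p = 0.544). The log2 fold changes without MMS 2 and MMS 4 were 0.13 for Mbd3 and -0.17 for Zbtb38.

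Of 16 tested genes of demethylation and base excision 9 were higher and 7 lower, with a median of 0.05. Idh1 and Idh2, whose enzymes make the cofactor of the TET proteins in the cytosol and in mitochondria, had log2 fold changes of 0.33 (SE 0.17, edgeR adjusted p = 0.564) and -0.33 (SE 0.21, edgeR adjusted p = 0.612). Idh2 was lowest in MMS 2 and MMS 4, at 28.5 and 30.9 CPM, and the other MMS libraries, at 50.9 to 63.3 CPM, lay within the control range of 41.0 to 73.6 CPM. Without these 2 libraries its log2 fold change was -0.07, and that of Idh1 was 0.33. The lowest Idh1 control was control 6, at 78.6 CPM, and without it the log2 fold change of Idh1 was 0.20.

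Of 11 genes listed for NuRD partners of MBD2, 5 were higher and 6 lower, with a median of -0.05. The smallest p-values in each direction were those of the histone chaperone Rbbp7 (0.11, SE 0.09, edgeR adjusted p = 0.692) and the helicase Chd3 (-0.15, SE 0.14; edgeR adjusted p = 0.737). Chd3 was at 278 CPM in both MMS 2 and MMS 4 and at 415 to 531 CPM in the other 10 libraries, and its log2 fold change was 0.08 without these 2 libraries, where that of Rbbp7 was 0.13. Of 5 tested genes listed as writer partners 1 was higher and 4 were lower, with a median of -0.15. Hells, a remodeller needed for methylation of repeats, had -0.51 (SE 0.29, edgeR adjusted p = 0.584), and Trdmt1, which methylates transfer RNA, had 0.35 (SE 0.25, edgeR adjusted p = 0.650). Of 6 genes listed for proteins that bind unmethylated CpG sites 2 were higher and 4 lower, with a median of -0.04. Cxxc1, part of a histone methyltransferase complex, had -0.36 (SE 0.17, edgeR adjusted p = 0.544) and Kmt2b had 0.04 (SE 0.18, edgeR adjusted p = 0.954). Without MMS 2 and MMS 4 the log2 fold changes were -0.12 for Cxxc1, 0.12 for Kmt2b, -0.68 for Hells and 0.19 for Trdmt1.

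Dnmt1 and Uhrf1 are also genes of dividing cells, so a list of cell division genes was read beside them. Of 17 genes 16 passed the filter, 6 higher and 10 lower in MMS with a median log2 fold change of -0.09, and 0 passed an adjusted p of 0.05 in edgeR (1 at an unadjusted p under 0.05). Their summed level was 187 to 209 CPM among controls and 174 to 226 CPM in the MMS group.

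**Figure D5:**
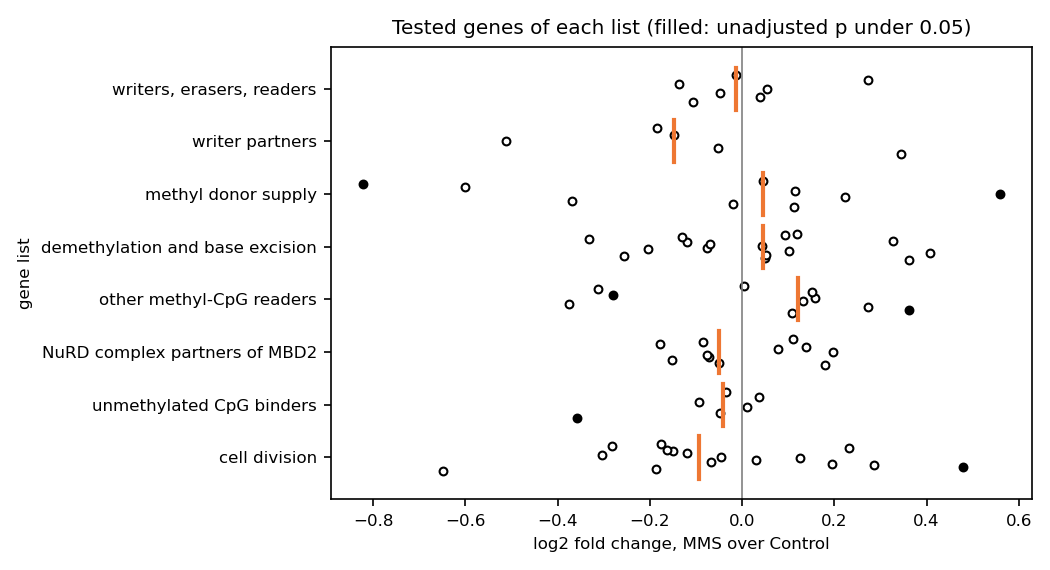
Log2 fold change (MMS over control, edgeR) of every tested gene of each list, with filled points for an unadjusted p under 0.05 and an orange line for the list median. List medians lie between -0.15 for the writer partners and 0.12 for the other methyl-CpG readers.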

How the data were processed

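Hypothalamic RNA of 12 pups was sequenced from the 3' end on an Ion Proton. The authors aligned reads to mm10 in Torrent Suite and deposited raw counts per gene and library, with no normalization or pooling. For the counting step, neither tool nor strand setting nor annotation is named in the sources used here. In 27 rows the symbol had become a date, and these were kept as unnamed rows (0.175% of counts). GENCODE release M21 held 91.1% of all symbols.

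Genes were tested with edgeR 4.0.16 in R 4.3.3 (quasi-likelihood, robust, TMM, filterByExpr at its defaults, that is 10 counts at the median depth and 15 in total), with two-sided p-values adjusted over 13104 genes by the Benjamini-Hochberg method and a threshold of 0.05. SE is the absolute log2 fold change over the square root of F, and intervals are at 95%. Genes under the filter were added back in a second fit. DESeq2 1.42.0, limma 3.58.1 (voom), RLE factors, other filters, a replicate block, 1 surrogate variable (sva 3.50.0) and fits without libraries were alternatives. Log2 CPM used a prior count of 2. The code was tested on simulated data. All 30 within-group pairs of libraries differed beyond sampling noise (chi-square per degree of freedom 4.04 to 31.5), so none looked like another library sequenced again. This check cannot tell different pups from different preparations of the same RNA. Each library counted as 1 sample. The p-values set the group difference against the spread between libraries, with litter not modelled.

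The members and gene lists were chosen with earlier results of these data known. Of each pathway list the gene with the smallest p in each direction was named, and the 3 genes most like Dnmt1, Dnmt3a, Uhrf1 and Tet3. The promoter motifs were chosen for this description. Markers of other cell types (astrocytes, oligodendrocyte lineage, microglia, endothelium, choroid plexus, meninges, red blood cells, telencephalon, thalamus) had 0 genes past the threshold in edgeR, with 1 gene at an unadjusted p under 0.05 in each of 6 lists and 0 in the other 3. Of 5 pituitary markers 0 passed the filter.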

Additional observations from a re-analysis of the deposited data

Results flagged for a closer look

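Dixon's criterion for a single outlying value was applied to each gene in each group, 18 sets of 6 values, and 2 sets met it. By chance about 0.9 of the 18 would. Tet2 was 18.4 CPM in control 5, where the next highest control was 13.3 CPM. Tet3 was 43.7 CPM in control 2, where the next highest control was 29.1 CPM. Control 2 was also the control with the highest Tet1 (61.1 CPM), Dnmt3a (454 CPM) and Uhrf1 (2.99 CPM). It was the lowest control for Dnmt1 (49.7 CPM) and Tet2 (11.4 CPM), and neither highest nor lowest for Dnmt3b, Mbd1 and Mbd2. Its library total, 3765759 counts, was the smallest among controls.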

How the results depend on the processing

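None of the 9 genes, and none of the other pathway genes, passed the threshold in any of 21 fits, those with the alternatives included. Genes that an alternative filter removed (2 of the 9 at a mean of at least 50 counts) had no test there. The lowest unadjusted p of a member over these fits was 0.0577, for Mbd1 without MMS 4. Over all genes the number past the threshold was 0, and it was 7 with DESeq2, 1 without a count filter, 1 with the replicate block, 4 with 1 surrogate variable and 5 without MMS 2 and MMS 4. It ran from 0 to 1 on leaving out 1 library. Unadjusted p-values under 0.05 numbered 1190, and 2039 without a count filter, 669 with 1 surrogate variable, 674 without MMS 2 and MMS 4, and 700 (without MMS 2) to 1804 (without MMS 5) on leaving out 1 library (707 without MMS 4). The cause was not tested.

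The sign of small changes depended on the fit. With 1 surrogate variable the log2 fold change was 0.0754 for Dnmt1, -0.0198 for Tet2, 0.0516 for Tet3 and 0.0793 for Chd3. Without MMS 2 and MMS 4 it was 0.0698 for Dnmt1, 0.0764 for Tet3 and 0.0761 for Chd3. Without a count filter Mbd2 was 0.0053. On leaving out 1 library, Tet1 lay between -0.143 and 0.0671, Tet2 between -0.0129 and 0.177, Mbd2 between -0.214 and 0.187 and Kmt2b between -0.0678 and 0.17. The range for Dnmt1 was -0.223 to -0.00088, and for Dnmt3a it was 0.0032 to 0.0863. The number of pairs of genes past the threshold stayed at 0 with RLE factors, with all 12 libraries and on leaving out 1 of the 10 libraries. CPM over the raw library total moved no group mean by more than its SD.

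Deviations from the group means of same-numbered libraries had r over 0.1 in 2 of 6 pairs (r of -0.05 to 0.12), and 3 of 12 libraries correlated best with their own number. No chance level was computed for these counts, so they do not settle whether the numbers pair the pups. The main fit did not pair them. With the replicate block 0 members passed the threshold.

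Depth limits Dnmt3b and Uhrf1 most, with means of 8.42 and 7.25 counts per library.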
